A study of Macaca fascicularis with 2 samples.

Results

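The 9 genes described here are those most used to recognise regulatory T cells, *FOXP3*, *IL2RA*, *IKZF2*, *IKZF4*, *CTLA4*, *TNFRSF18*, *TNFRSF4*, *TIGIT* and *RTKN2*. They were taken by their symbols from the deposited gene list, where each symbol matched 1 of 29324 genes, and all 9 were detected. The data come from 1 untreated, healthy male cynomolgus monkey (*Macaca fascicularis*) aged 10 years. Fresh peripheral blood mononuclear cells went through bead selection for CD4 and then for CD8, so the cells are CD4+CD8+ double-positive (DP) T cells by selection. The selected cells were stained with DNA-tagged antibodies to CD4 and CD8, and 1 gene library and 1 tag library of the same droplets were made. With 1 animal and 1 pair of libraries there are no replicates, no test across animals was possible, and every interval below is a 95% interval that covers counting error only.

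Regulatory T cells restrain other immune cells. Their identity rests on the transcription factor FOXP3, which works with partners of the Ikaros family, Helios (encoded by *IKZF2*) and Eos (*IKZF4*). They carry much of the high-affinity interleukin-2 receptor through its α chain CD25 (*IL2RA*), and the inhibitory receptor CTLA-4, which removes the ligands of CD28 from antigen-presenting cells. TIGIT is a second inhibitory receptor, while GITR (*TNFRSF18*) and OX40 (*TNFRSF4*) are costimulatory receptors of the tumour necrosis factor receptor family. *RTKN2* is a frequent transcript of human regulatory T cells. These genes, *FOXP3* in humans included, can also be induced in other T cells after activation.

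The limits of the study's methods (200 to 4000 genes and at most 20% mitochondrial UMIs per cell) kept 8830 of 8953 barcodes, which is more cells than the study analysed after these limits, for a reason that is not known. UMIs (unique molecular identifiers) count captured RNA molecules, and the kept cells held a median of 3145 gene UMIs. Cells were divided by their tag UMIs at 144 for CD4 and 419 for CD8 into CD4hiCD8lo (5758 cells), CD4hiCD8hi (2543), CD4loCD8hi (418) and CD4loCD8lo (111). Median depth was 2950 UMIs in CD4hiCD8lo and 3778 in CD4hiCD8hi cells. Levels are counts per 1000000 gene UMIs (CPM) summed over a group of cells, with an exact Poisson interval, and ratios of levels have the exact interval of the split of UMIs between both groups. To compare shares of cells across depths, 2200 UMIs were drawn from every cell (thinning). This left out 754 cells with fewer, and these shares have Clopper-Pearson intervals. Background was read from 113 B cells without T cell receptor RNA (median 4549 UMIs). They held 0 UMIs of *FOXP3*, *CTLA4*, *TNFRSF4* and *RTKN2*, so that up to 6.65 CPM is allowed for each of these.

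*FOXP3* RNA lay almost wholly in cells with a high CD4 tag, and more often in those with a low CD8 tag. In all, 720 *FOXP3* UMIs were found in 384 cells. After thinning, a *FOXP3* UMI was present in 3.78% of CD4hiCD8lo cells (3.28 to 4.33%) and in 2.33% of CD4hiCD8hi cells (1.76 to 3.01%). It was present in 0.499% of CD4loCD8hi cells (0.0605 to 1.79%) and in 0 of 80 CD4loCD8lo cells (upper end 4.51%). Without thinning the first 3 shares were 5.02%, 3.66% and 0.478%, and thinning left out 570, 136 and 17 cells of these gates. The summed level was 29.0 CPM in CD4hiCD8lo (26.6 to 31.5), 16.5 in CD4hiCD8hi (14.2 to 19.1) and 1.84 in CD4loCD8hi cells (0.379 to 5.37). CD4hiCD8lo cells thus held 1.75-fold more *FOXP3* RNA per UMI than CD4hiCD8hi cells (1.48 to 2.09), and the intervals of these gates did not overlap. The CD4loCD8hi value rested on 3 UMIs in 2 cells, is below what the B cells allow, and is not read as expression. Of the 384 *FOXP3*-positive cells (at least 1 UMI), 75.3% were CD4hiCD8lo and 24.2% CD4hiCD8hi.

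Among the FOXP3-positive cells, 223 had 1 *FOXP3* UMI, 90 had 2 and 71 had 3 or more, up to 17 in 1 cell. A cell called FOXP3-negative is therefore one in which no molecule was captured, and it may still express the gene. FOXP3-positive cells had a median depth of 3581.5 UMIs and FOXP3-negative cells of 3124. Median tag UMIs were 415.5 for CD4 and 255 for CD8 in FOXP3-positive cells, against 418 and 300 in FOXP3-negative cells.

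All 8 other genes were found at a higher level in FOXP3-positive than in FOXP3-negative cells, and for each the interval of the ratio lay above 1. *IL2RA* differed most, with 88.4 CPM in FOXP3-positive (74.4 to 104) and 5.18 in FOXP3-negative cells (4.40 to 6.06), a ratio of 17.1 (13.5 to 21.6). Its share of cells was 14.96% (10.8 to 19.95%) against 1.13% (0.903 to 1.38%) after thinning, and 22.1% against 1.54% without. The 384 FOXP3-positive cells, 4.35% of all cells, held 47.3% of all *IL2RA* UMIs.

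Of the Ikaros family partners, *IKZF2* had 65.0 CPM in FOXP3-positive cells (53.1 to 78.9) and 14.2 in FOXP3-negative cells (12.8 to 15.6), a ratio of 4.59 (3.67 to 5.71). *IKZF4* had 25.3 CPM (18.0 to 34.4) and 5.02 CPM (4.25 to 5.89), a ratio of 5.03 (3.46 to 7.17). Thinned shares were 15.4% and 3.06% for *IKZF2* and 4.33% and 1.18% for *IKZF4*, and 22.7% and 4.75%, and 9.11% and 1.72%, without thinning. Both genes were thus enriched about alike with *FOXP3*, and their ratio intervals overlapped.

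The inhibitory receptors differed from each other in how far they kept to FOXP3-positive cells. *CTLA4* had 104 CPM in FOXP3-positive (88.3 to 121) and 14.6 in FOXP3-negative cells (13.3 to 16.02), a ratio of 7.10 (5.90 to 8.51). *TIGIT* had 155 CPM (137 to 176) and 40.8 CPM (38.6 to 43.2), a ratio of 3.81 (3.31 to 4.37), whose interval lay below that of *CTLA4*. Thinned shares were 19.3% and 3.03% for *CTLA4* and 16.5% and 6.51% for *TIGIT*, and 29.7% and 4.23%, and 21.9% and 9.64%, without thinning. Read the other way, 17.1% of the 286 thinned cells with *CTLA4* also had *FOXP3* (12.95 to 22.01%), but 7.62% of the 551 with *TIGIT* (5.55 to 10.2%), and 30.2% of the 126 with *IL2RA* (22.3 to 39.0%).

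The costimulatory receptors followed. *TNFRSF18* had 39.8 CPM in FOXP3-positive (30.6 to 50.9) and 6.58 in FOXP3-negative cells (5.70 to 7.56), a ratio of 6.05 (4.48 to 8.06). *TNFRSF4* had 45.5 CPM (35.6 to 57.3) and 11.6 CPM (10.4 to 12.8), a ratio of 3.93 (3.01 to 5.08). *RTKN2* had 64.4 CPM (52.5 to 78.2) and 8.27 CPM (7.28 to 9.37), a ratio of 7.78 (6.12 to 9.84). Thinned shares in FOXP3-positive and FOXP3-negative cells were 5.91% and 1.19% for *TNFRSF18*, 8.66% and 1.56% for *TNFRSF4*, and 11.8% and 1.51% for *RTKN2*. Without thinning they were 10.2% and 1.93%, 12.2% and 2.75%, and 20.3% and 2.59%.

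**Figure D1:**
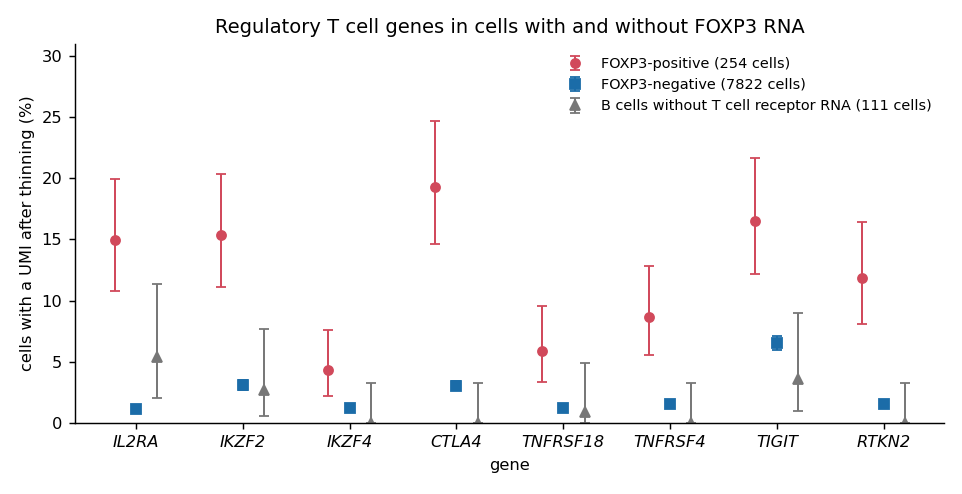
Percentage of cells with a UMI of each gene after thinning to 2200 UMIs (y axis), for FOXP3-positive cells (circles), FOXP3-negative cells (squares) and B cells without T cell receptor RNA (triangles). Bars are Clopper-Pearson 95% intervals. For *IL2RA* the FOXP3-positive cells sit at 14.96% and the FOXP3-negative cells at 1.13%, below the B cells at 5.41%.

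The FOXP3-negative levels have to be read against the B cells. *CTLA4*, *TNFRSF4* and *RTKN2* lay above the 6.65 CPM allowed there. *TIGIT*, at 40.8 CPM, lay just above the upper bound of the B cell value (23.5 CPM, 12.5 to 40.1). *IL2RA* in FOXP3-negative cells (5.18 CPM) was below the B cell value of 14.4 CPM (6.23 to 28.4). *IKZF2*, *IKZF4* and *TNFRSF18* fell inside the B cell intervals (10.8 CPM, 3.97 to 23.6; 3.61, 0.437 to 13.03; and 1.80, 0.0457 to 10.1), so that for *IKZF2* and *IKZF4* no expression without *FOXP3* is read from the pooled value. For *IL2RA*, *TIGIT* and *TNFRSF18* a closer limit on free RNA came from 4964 of the FOXP3-negative cells (clusters 0, 1 and 3 below). They held 1.80 CPM (1.19 to 2.62), 0.334 CPM (0.108 to 0.779) and 0.200 CPM (0.0413 to 0.586). For *IKZF2*, FOXP3-negative cells of cluster 2 had 3.48 CPM (1.74 to 6.23), against 15.6 CPM in clusters 0, 1 and 3 (13.6 to 17.7). The B cell interval is thus not the closest limit for *IKZF2*, and the source of its B cell UMIs was not tested.

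Most FOXP3-positive cells carried at least 1 of the other 8 genes. After thinning, 39.4% of 254 FOXP3-positive cells had none of them (33.3 to 45.7%), 35.8% had 1, 16.5% had 2 and 8.27% had 3 or more (5.19 to 12.4%). Of 7822 FOXP3-negative cells, 83.8% had none (82.9 to 84.6%) and 0.499% had 3 or more (0.355 to 0.681%). Without thinning, 26.3% of FOXP3-positive cells had none and 19.5% had 3 or more. The share with at least 1 other gene, unthinned, was 66.7% in the 129 FOXP3-positive cells with the fewest UMIs (57.8 to 74.7%, median 2817 UMIs) and 82.0% in the 128 with the most (74.3 to 88.3%, median 5491 UMIs). Detection of these genes in single cells was thus higher in deeper cells, with intervals that overlapped slightly.

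Levels of 4 genes were higher in cells with more *FOXP3* UMIs, at similar depth (medians of 3559 UMIs in cells with 1 *FOXP3* UMI and 3793 in those with 3 or more). *IL2RA* had 53.9 CPM in cells with 1 *FOXP3* UMI (39.7 to 71.4), 127 with 2 (92.6 to 169) and 140 with 3 or more (102 to 186), a log2 ratio of 1.37 between the last and the first (0.76 to 1.99). *TIGIT* had 118, 179 and 231 CPM (log2 ratio 0.97, 0.52 to 1.41). *CTLA4* had 87.6, 110 and 140 CPM (log2 ratio 0.67, 0.11 to 1.22), and *TNFRSF4* 33.7, 55.0 and 66.7 CPM (log2 ratio 0.99, 0.12 to 1.83). For *IKZF2* (log2 ratio 0.43), *RTKN2* (0.54), *TNFRSF18* (-0.04) and *IKZF4* (-0.15) the intervals included 0. *TNFRSF18* stood at 40.4, 38.5 and 39.4 CPM.

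The ratios were not alike in both CD4hi gates. *IL2RA* kept its ratio, at 16.5 in CD4hiCD8lo (12.2 to 22.3) and 18.2 in CD4hiCD8hi cells (12.2 to 27.2), and so did *IKZF2*, at 4.58 (3.53 to 5.89) and 4.11 (2.51 to 6.46). The ratio of *TNFRSF4* was 8.20 in CD4hiCD8lo (5.84 to 11.4) and 1.49 in CD4hiCD8hi cells (0.835 to 2.46), that of *TIGIT* 6.49 (5.44 to 7.72) and 2.09 (1.58 to 2.72), and that of *TNFRSF18* 10.1 (6.95 to 14.6) and 2.49 (1.29 to 4.42). *CTLA4* had 8.16 (6.60 to 10.1) and 3.62 (2.32 to 5.46). For these 4 receptors the intervals of the gates did not overlap, while for *RTKN2* (8.86 and 5.68) and *IKZF4* (5.54 and 3.30) they did. Both sides of the ratio moved. In FOXP3-negative cells *TNFRSF4* was higher in CD4hiCD8hi, and in FOXP3-positive cells *CTLA4* was lower there, at 55.1 CPM (36.3 to 80.2) against 127 in CD4hiCD8lo (107 to 150).

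From the whole gene list, FOXP3-positive and FOXP3-negative CD4hi cells (382 and 7919 cells) were compared over 3711 genes. These had at least 50 UMIs and a UMI in at least 10% of cells of the higher group. The median log2 ratio was -0.05, which gives the centre of the ratios and not how far the groups differed. A ratio of at least 2 was called higher for 0.97% of these genes (36) and lower for 0.997% (37). *FOXP3* itself, which chose the cells, was left out. Of the 8 other genes 7 passed the filter and all 7 were called higher. In FOXP3-negative cells each of them was below the 10%, so they could pass only by being high in FOXP3-positive cells, and the count is no support for the group. *IKZF4* did not pass.

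Outside the 9 genes, ratios were ranked among the genes that passed this filter. The 10 largest towards FOXP3-positive cells were those of *CLNK*, ENSMFAG00000047024, *CD9*, *OTUD5*, *BCL2L11*, *SESN1*, *IL2RB*, *SGK1*, *GAPDHS* and *ZC3H12D*. All but *OTUD5* and *IL2RB* were below the 10% in FOXP3-negative cells, so they could pass only by being high in FOXP3-positive cells. *CLNK*, an adaptor of antigen receptor signalling, had 31.2 CPM against 2.82 (log2 ratio 3.47, 2.92 to 4.001), next to the 3.21 of ENSMFAG00000047024 (2.83 to 3.59), for which the files give no name. *CD9*, a tetraspanin of the cell surface, had 65.6 CPM against 12.95 (log2 ratio 2.34, 2.01 to 2.66). *OTUD5*, which encodes a deubiquitinase, had 171 CPM against 44.6 (1.94, 1.74 to 2.13), and *BCL2L11*, which encodes the death-promoting protein BIM, 50.3 against 14.0 (1.84, 1.48 to 2.20). *IL2RB*, the β chain of the interleukin-2 receptor, had 152 CPM against 46.9 (1.69, 1.49 to 1.89). *GAPDHS* is a paralogue of *GAPDH*, and how reads of such copies were divided is not known. In FOXP3-positive cells of clusters 4 and 6, described below, *CLNK* had 6.74 and 63.2 CPM, *SGK1* 16.8 and 157, and *CD9* 108 and 34.0. FOXP3-negative cells there had 4.36 and 33.5 CPM of *CLNK*, 19.6 and 131 of *SGK1*, and 23.6 and 21.0 of *CD9*. *OTUD5* had 109 and 277 CPM in the FOXP3-positive cells and 61.0 and 289 in the FOXP3-negative cells. The ratios of *CLNK*, *SGK1* and *OTUD5* over all CD4hi cells were thus not matched within these clusters.

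The 10 lowest that passed the filter were *BHLHE40*, *SERPINA1*, *NKG7*, *GZMB*, *CST7*, *EVA1C*, *CCL5*, *HOPX*, *DNTT* and *SMIM3*. *GZMB*, a granule protease, had 135 CPM in FOXP3-positive cells and 772 in FOXP3-negative cells (log2 ratio -2.52, -2.72 to -2.32), and *NKG7*, a granule membrane protein, 77.1 and 445 (-2.53, -2.80 to -2.27). A *GZMB* UMI was present in 3.93% of the FOXP3-positive cells, and those of clusters 4 and 6, described next, had 13.5 and 6.48 CPM of *GZMB* and 5.05 and 3.24 of *NKG7*. *DNTT*, the polymerase that adds bases at T cell receptor junctions in the thymus, had 9.55 and 43.6 CPM (-2.19, -3.03 to -1.46).

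To see where the 9 genes lie among the cells without using them, cells were clustered on all other genes. Among 17 clusters, 77.9% of the FOXP3-positive cells fell into clusters 4 and 6. Cluster 6 held 171 FOXP3-positive among 380 cells (45.0%), and its leading genes included *CLNK*, *OTUD5*, *SGK1* and *BCL2L11*. Cluster 4 held 128 among 704 cells (18.2%), and was led by *CGA*, *CR1*, *CR2* and *APOD*. Cluster 16 had 1 FOXP3-positive among 19 cells, cluster 9 had 8 among 217 (3.69%), and the others had at most 3.17%. The clusters are called by number, since their names would rest on the genes under study.

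The FOXP3-positive cells of both clusters had overlapping levels of *IL2RA*, *IKZF2*, *CTLA4* and *RTKN2* and differed in the other receptors. *FOXP3* itself, which chose these cells, stood at 477 and 509 CPM in them, and at 84.5 CPM over all cells of cluster 4 (74.9 to 94.9) and 236 over all of cluster 6 (210 to 263). In the FOXP3-positive cells *IL2RA* stood at 109 (84.5 to 140) and 94.0 (71.4 to 121), and *CTLA4* at 104 (80.0 to 134) and 125 (98.5 to 156). The log2 ratio of cluster 4 over 6 was 0.22 for *IL2RA* (-0.31 to 0.76), -0.08 for *IKZF2* (-0.73 to 0.56), -0.26 for *CTLA4* (-0.76 to 0.24) and 0.24 for *RTKN2* (-0.38 to 0.87).

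*TIGIT* had 223 UMIs in 72 of the 128 FOXP3-positive cells of cluster 4, or 376 CPM (328 to 428). It had 0 UMIs in the 171 of cluster 6, with an exact upper end of 5.98 CPM. The exact lower end of the log2 ratio was 5.96. Against a limit set at 3 UMIs over the group (4.86 CPM) *TIGIT* was 77.3-fold higher in cluster 4, which is not a lower bound. *TNFRSF18* had 52 UMIs in 35 cells of cluster 4 (87.6 CPM, 65.4 to 115) and 0 in cluster 6. The exact lower end of its log2 ratio was 3.82, and against the same set limit it was 18.0-fold higher. With 10 components for the clusters the log2 ratios were 6.17 for *TIGIT* (4.60 to 8.46) and, against the limit, 3.72 for *TNFRSF18*. *TNFRSF4* had 59 UMIs in 36 cells (99.4 CPM, 75.6 to 128) and 4 UMIs in 4 cells (6.48 CPM, 1.77 to 16.6), a ratio of 15.3. *IKZF4* went the other way, with 9 UMIs in cluster 4 (15.2 CPM, 6.93 to 28.8) and 25 in cluster 6 (40.5 CPM, 26.2 to 59.8). Median depth was 3904 UMIs in the first and 3428 in the second group.

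**Figure D2:**
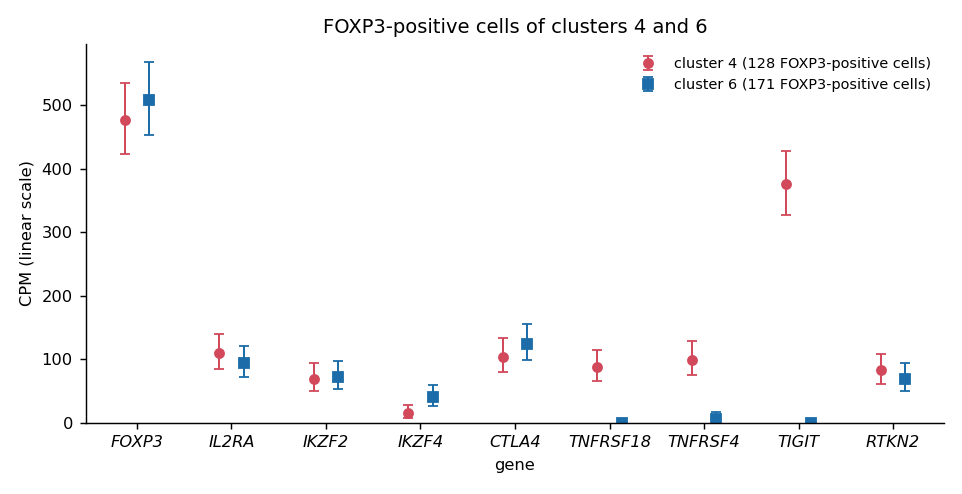
Level in CPM (linear y axis) of the 9 genes in FOXP3-positive cells of cluster 4 (circles, 128 cells) and cluster 6 (squares, 171 cells), with exact Poisson 95% intervals. *TIGIT* stands at 376 CPM in cluster 4 and at 0 UMIs in cluster 6, while *IL2RA*, *IKZF2*, *CTLA4* and *RTKN2* have overlapping intervals.

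Over 2561 genes with at least 50 UMIs, 9.49% were called higher and 1.25% lower by 2-fold in FOXP3-positive cells of cluster 4 than of cluster 6, with a median log2 ratio of 0.26. Apart from *FOXP3*, 7 of the genes had enough UMIs, of which 3 were called higher (*TIGIT*, *TNFRSF18* and *TNFRSF4*) and 0 lower. These 3 had enough UMIs only through cluster 4, and *IKZF4*, with the 9 and 25 UMIs above, did not have enough, so the count is no support for a direction. *CCR7*, a chemokine receptor of naïve T cells, had 258 CPM in cluster 4 (218 to 302) and 512 in cluster 6 (457 to 572). A similar division was seen without clusters. FOXP3-positive cells with a *TIGIT* UMI (84) had 127 CPM of *TNFRSF18* against 7.76 in those without (300), a log2 ratio of 4.03 (3.004 to 5.24), and 122 against 17.3 CPM of *TNFRSF4* (2.83, 2.06 to 3.65), at median depths of 4117 and 3496 UMIs. The log2 ratio was -0.12 for *IKZF2* (-0.82 to 0.54) and -0.14 for *CTLA4* (-0.68 to 0.38).

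Within these clusters, the neighbours without a *FOXP3* UMI differed. In cluster 6, the 209 FOXP3-negative cells had *CTLA4* at 108 CPM (84.9 to 135) against 125 in FOXP3-positive cells, *IKZF2* at 58.7 (42.3 to 79.3) against 72.9, and *IKZF4* at 33.5 (21.5 to 49.9) against 40.5, with ratio intervals that included 1. *IL2RA* differed there by a ratio of 2.10 (1.34 to 3.34) and *RTKN2* by 1.72 (1.05 to 2.86). In cluster 4, 7 of the 8 genes were higher in FOXP3-positive cells with a ratio interval above 1. *IL2RA* had a ratio of 8.87 there (5.77 to 13.9), *TIGIT* of 3.71 (3.096 to 4.44) and *CTLA4* of 2.59 (1.87 to 3.57), while *IKZF4* had 1.90 (0.769 to 4.29). Cells without a *FOXP3* molecule in cluster 6 thus had nearly the levels of their FOXP3-positive neighbours for these 3 genes. Those in cluster 4 did not for *CTLA4* and *IKZF2* (ratio 4.23, 2.70 to 6.60). For *IKZF4* the ratio interval included 1 in both clusters, so no difference between the clusters is read.

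The 85 FOXP3-positive cells outside both clusters carried all 8 genes too. Their *IL2RA* stood at 45.6 CPM (26.6 to 73.0) against 3.38 in the 7661 FOXP3-negative cells there (2.72 to 4.15), *CTLA4* at 67.1 (43.4 to 99.0) against 9.43 (8.30 to 10.7), and *TNFRSF18* at 29.5 (14.7 to 52.8) against 4.77 (3.98 to 5.68). Of the 11 *TNFRSF18* UMIs of the 85 cells, 6 lay in 1 cell of cluster 16, which was led by *LYZ* and *CFD*. That cell also held 3 of their 23 *TIGIT*, 2 of their 9 *TNFRSF4* and 1 of their 6 *IKZF4* UMIs. All values given for the 85 cells include it, and their ratios without it were not tested. For all 8 genes the ratio interval lay above 1, and it came closest to 1 for *TIGIT*, at 1.74 (1.09 to 2.62).

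In FOXP3-negative cells, the gates differed in the costimulatory receptors and *TIGIT*, and little in *IL2RA* and *CTLA4*. *TNFRSF4* stood at 6.32 CPM in CD4hiCD8lo (5.19 to 7.62) and 21.99 in CD4hiCD8hi cells (19.3 to 24.98), a ratio of 3.48 (2.76 to 4.41). *TNFRSF18* had 4.58 CPM (3.63 to 5.71) and 10.7 CPM (8.81 to 12.8), a ratio of 2.33 (1.73 to 3.14), and *TIGIT* 26.4 (24.0 to 28.9) and 59.7 (55.1 to 64.5), a ratio of 2.26 (2.003 to 2.56). These 3 of the 8 genes were called higher by 2-fold, where 4.74% of 9959 genes were, and 0 were called lower, where 1.26% were. *TIGIT* missed the 2-fold call with tag thresholds 25% higher (log2 ratio 0.94, 0.76 to 1.11), and *TNFRSF18* with thresholds 25% lower (0.98, 0.54 to 1.44). *RTKN2* had 7.42 and 11.1 CPM (ratio 1.501, 1.16 to 1.94).

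The transcription factors went slightly the other way, with *IKZF2* at 16.2 and 11.4 CPM (ratio 0.706, 0.566 to 0.875) and *IKZF4* at 5.68 and 3.71 CPM (0.653, 0.441 to 0.953). The interval of *IKZF4* included no difference under 2 other settings. Its log2 ratio was -0.33 with tag thresholds 25% higher (-0.93 to 0.24) and -0.56 without the cells of highest doublet score (-1.17 to 0.02). *IL2RA* had 5.16 and 5.38 CPM (1.04, 0.736 to 1.47), and *CTLA4* 15.5 and 15.2 CPM (0.979, 0.802 to 1.19). These intervals leave room for ratios from 0.736 to 1.47 in *IL2RA* and from 0.802 to 1.19 in *CTLA4*.

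CD4loCD8hi cells carried *TIGIT* and little else of the group beyond the B cell levels. *TIGIT* stood at 69.9 CPM in the 416 FOXP3-negative cells (57.6 to 84.0), 1.78-fold the level of CD4hi cells (1.46 to 2.17) and 1.17-fold that of CD4hiCD8hi cells (0.950 to 1.43). *IKZF2* had 12.4 CPM (7.55 to 19.1) and *IKZF4* 7.42 CPM (3.83 to 12.96), with intervals that overlapped those of both CD4hi gates. Both lay inside the B cell range, while *IKZF2* lay above its 3.48 CPM in FOXP3-negative cells of cluster 2 (1.74 to 6.23). *CTLA4* had 6 UMIs (3.71 CPM, 1.36 to 8.07), *IL2RA* 3, *TNFRSF18* 2, *TNFRSF4* 2 and *RTKN2* 1. Compared with CD4hi cells, 5 of the 8 genes were called lower by 2-fold, where 7.31% of 10036 genes were, and 0 were called higher, where 3.98% were. These 5 had enough UMIs only through the CD4hi cells, so the count is no support for a direction. The ratio was 0.0699 for *RTKN2* (0.00176 to 0.393), 0.100 for *TNFRSF4* (0.0121 to 0.364) and 0.241 for *CTLA4* (0.0878 to 0.528), while that of *IL2RA* had an interval that included 1. The 111 CD4loCD8lo cells, most of which (68) lay in the B cell cluster led by *MS4A1*, had 17 *TIGIT* UMIs (37.6 CPM, 21.9 to 60.3) and at most 6 of any other gene.

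**Figure D3:**
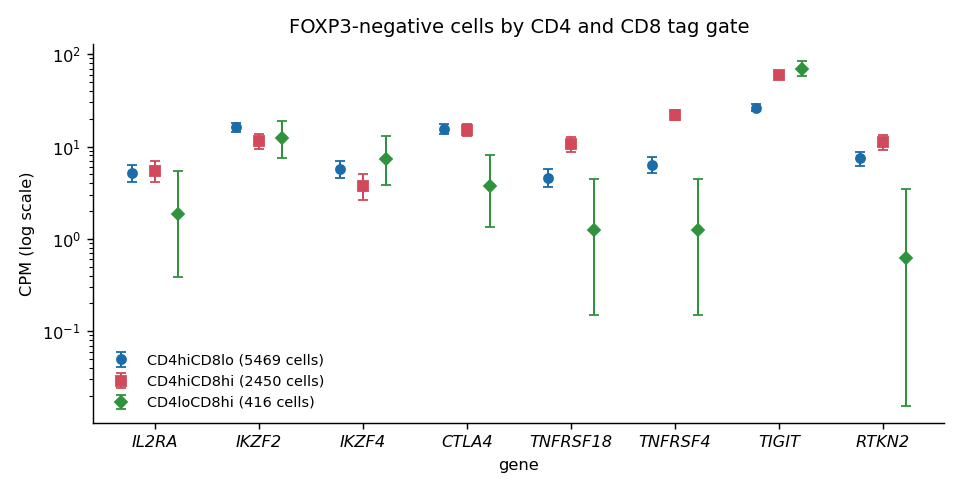
Level in CPM (logarithmic y axis) of 8 genes in FOXP3-negative cells of the gates CD4hiCD8lo (circles), CD4hiCD8hi (squares) and CD4loCD8hi (diamonds), with exact Poisson 95% intervals. *TNFRSF4* stands at 6.32, 21.99 and 1.24 CPM in this order, *TIGIT* at 26.4, 59.7 and 69.9 CPM.

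Along the CD8 tag, *TIGIT* and *TNFRSF4* took different courses. CD4hi cells were divided into deciles by CD8 tag UMIs, from a median of 141 in the first to 1215 in the last. In FOXP3-negative cells *TIGIT* stood at 12.6 CPM in the first decile (8.38 to 18.2), 38.5 in the sixth (31.3 to 46.8), 59.5 in the eighth (51.0 to 69.0) and 60.3 in the last (53.2 to 68.1), so the last 3 deciles were level within their intervals. *TNFRSF4* stood between 3.60 and 9.86 CPM in the first 7 deciles, then at 12.6 (8.86 to 17.3), 18.9 (14.6 to 24.2) and 31.8 CPM (26.7 to 37.6). *CTLA4* ranged from 12.3 to 19.6 CPM without a course.

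The FOXP3-positive share lay between 3.45% and 4.48% in the first 6 deciles after thinning, was lowest in the ninth (1.64%, 0.876 to 2.79%) and was 3.08% in the last (2.005 to 4.52%). Without thinning it lay between 4.98% and 5.54% in the first 6 deciles and was 3.13% in the ninth and 4.93% in the last. Median depth was 2819 UMIs in the first decile and 4746 in the last. Along the CD4 tag, *TNFRSF4* in FOXP3-negative cells stood at 1.94 CPM in the first decile (0.629 to 4.52) and 25.5 in the last (21.0 to 30.7), and *TIGIT* was highest in the first, at 58.5 CPM (49.5 to 68.6).

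**Figure D4:**
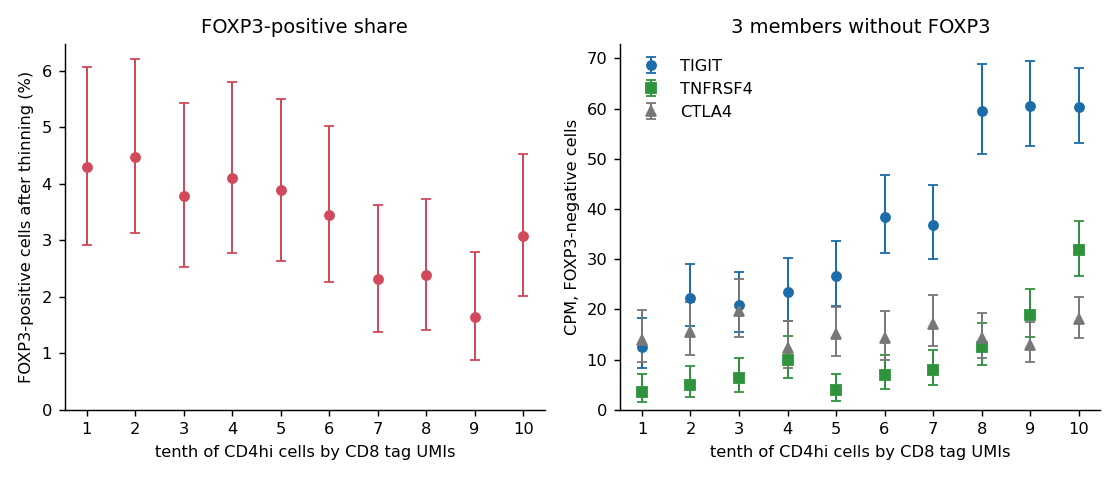
CD4hi cells in deciles of their CD8 tag UMIs (x axis, from lowest to highest), with the percentage of FOXP3-positive cells after thinning (left, Clopper-Pearson 95% intervals) and the CPM of *TIGIT* (circles), *TNFRSF4* (squares) and *CTLA4* (triangles) in FOXP3-negative cells (right, exact Poisson 95% intervals). *TIGIT* is level over the last 3 deciles, at 59.5 to 60.6 CPM, while *TNFRSF4* goes from 12.6 to 31.8 CPM over the same deciles.

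The cells of both CD4hi gates were spread differently over the clusters. Cluster 0 was led by *DNTT* and cluster 1 by *CD1A* and *GAL*, while the first gene of cluster 3, *HBB*, had 4447 of its 4450 UMIs there in 1 cell and describes no type. These 3 clusters, with 4964 FOXP3-negative cells, had 5 *TIGIT* UMIs (0.334 CPM, 0.108 to 0.779), 3 of *TNFRSF18* (0.200 CPM) and 15 of *TNFRSF4* (1.002 CPM), so that free RNA gave them no more than this. Clusters 0, 1 and 3 made up 36.1%, 26.8% and 12.9% of FOXP3-negative CD4hiCD8lo cells and 16.5%, 12.0% and 3.59% of CD4hiCD8hi cells. The same clusters held 54.7% of the *IKZF2* UMIs of FOXP3-negative cells (15.6 CPM, 13.6 to 17.7), 42.4% of those of *IKZF4* and 28.0% of those of *CTLA4* (8.22 CPM, 6.83 to 9.80). *CTLA4* was thus present where *TIGIT* and the costimulatory receptors were nearly absent. *IKZF4* lay inside its B cell interval. *IKZF2* did too, but it lay above its closer limit, the 3.48 CPM in FOXP3-negative cells of cluster 2 (1.74 to 6.23).

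The receptors concentrated elsewhere. Clusters 7, 4 and 9 held 85.3% of the *TNFRSF4* UMIs of FOXP3-negative cells, and 84.8% of those of *TNFRSF18*. Cluster 9, led by *LMNA*, *ADIRF* and *MMP25*, had 88.0 CPM of *TNFRSF4* (70.3 to 109) and 57.9 of *TNFRSF18* (43.8 to 75.2), with *CTLA4* at 2 UMIs. Cluster 7, whose leading genes included the chemokine receptor *CCR6*, had 68.8 CPM of *TNFRSF4* (57.0 to 82.4), 25.7 of *TNFRSF18* (18.6 to 34.5) and 23.3 of *RTKN2* (16.7 to 31.8). Both clusters were richer in the CD4hiCD8hi gate, at 9.55% against 1.24% of FOXP3-negative cells for cluster 7 and 5.67% against 1.26% for cluster 9.

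*TIGIT* without *FOXP3* lay mainly in clusters 2, 4 and 8, which held 67.4% of its UMIs in FOXP3-negative cells. Cluster 4 had 22.7% of them, at 101 CPM (89.7 to 114). Cluster 8, led by *GZMK* and *EOMES*, had 191 CPM (165 to 221) together with 49.6 CPM of *CTLA4* (36.7 to 65.6). Cluster 2, led by *SERPINA1*, *CX3CR1* and *GZMB*, had 114 CPM (102 to 126) and made up 20.6% of FOXP3-negative CD4hiCD8hi cells against 5.98% of CD4hiCD8lo cells. Cluster 5, led by *KLRD1* and *TRGC2* and found at 45.4% of FOXP3-negative CD4loCD8hi cells, had 87.8 CPM (75.5 to 101). *IL2RA* without *FOXP3* was highest in cluster 6 (44.7 CPM, 30.6 to 63.1), and cluster 12, at 35.7 CPM (13.1 to 77.7), rested on 6 UMIs in cells with a median of 939 UMIs.

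**Figure D5:**
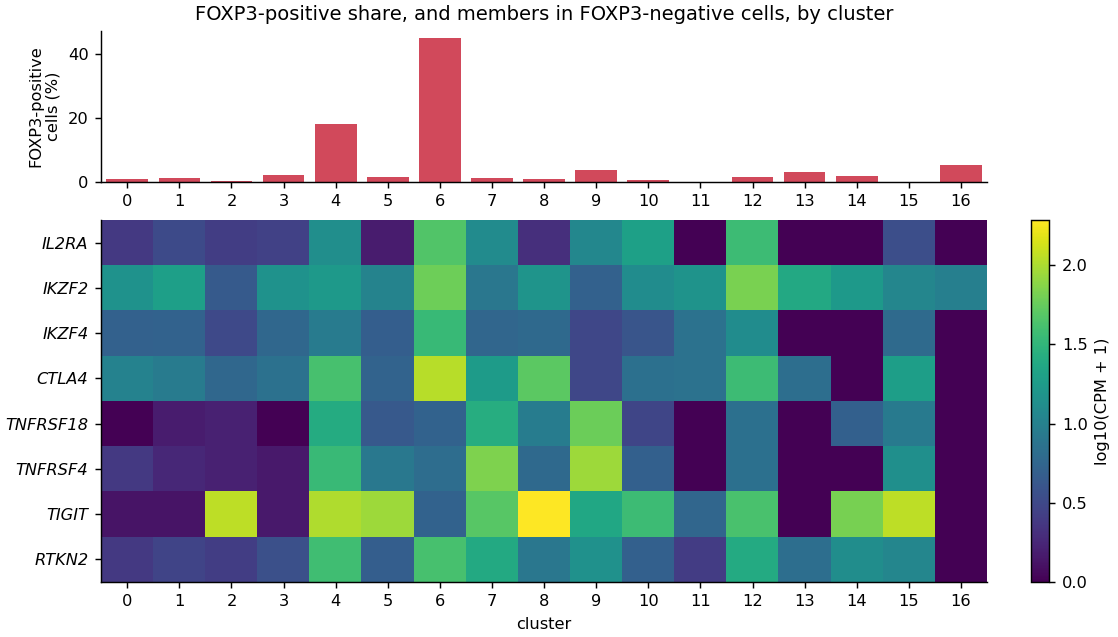
Percentage of FOXP3-positive cells in each of the 17 clusters (upper bars, not thinned) and level of 8 genes in the FOXP3-negative cells of the same clusters (lower panel, colour as log10 of CPM + 1). FOXP3-positive cells are most frequent in cluster 6 (45.0%) and cluster 4 (18.2%), and *TIGIT* without *FOXP3* is highest in cluster 8 (191 CPM).

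Within single clusters, the differences between CD8hi and CD8lo cells of *TIGIT*, *TNFRSF4* and *TNFRSF18* were smaller than over all clusters or went the other way. The log2 ratio of *TIGIT* in FOXP3-negative CD4hiCD8hi over CD4hiCD8lo cells was -0.24 in cluster 2 (-0.55 to 0.08), -0.15 in cluster 8 (-0.58 to 0.29) and -0.49 in cluster 4 (-0.85 to -0.14), against 1.18 over all clusters (1.002 to 1.35). *TNFRSF4* had a log2 ratio of -0.05 in cluster 9 (-0.75 to 0.68) and -0.19 in cluster 4 (-0.80 to 0.43), and 0.96 in cluster 7 (0.15 to 1.88), against 1.80 over all. *TNFRSF18* had -0.71 in cluster 9 (-1.53 to 0.14), -0.78 in cluster 4 (-1.56 to -0.04) and 0.996 in cluster 7 (-0.35 to 2.70), against 1.22 over all. *IKZF2*, at -0.50 over all (-0.82 to -0.19), had 0.34 in cluster 0 (-0.47 to 1.09) and 0.49 in cluster 1 (-0.17 to 1.12). It had -1.88 in cluster 3 (-7.23 to 0.71), -1.42 in cluster 4 (-2.51 to -0.42) and -0.70 in cluster 6 (-2.12 to 0.50).

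The FOXP3-positive share was lower in CD8hi cells in cluster 4, beyond the counting intervals, and about equal outside clusters 4 and 6. In cluster 4 it was 16.6% of CD4hiCD8lo (13.02 to 20.8%) and 7.93% of CD4hiCD8hi cells (5.09 to 11.7%) after thinning, and 21.8% and 13.2% without. In cluster 6 it was 33.7% (28.3 to 39.4%) and 24.3% (14.8 to 36.0%), with overlapping intervals, and 48.0% and 34.7% without thinning. Outside both it was 0.753% (0.522 to 1.05%) and 0.782% (0.447 to 1.27%), and 1.11% and 1.33% without thinning. In FOXP3-positive cells of cluster 4, CD8hi cells (39) also had less *TIGIT* than CD8lo cells (88), at 195 CPM (142 to 260) against 506 (435 to 586), less *TNFRSF18* (38.9, 17.8 to 73.9, against 122, 88.5 to 165) and less *CTLA4* (51.9, 26.8 to 90.7, against 142, 105 to 187). Outside clusters 4 and 6 *TIGIT* went the other way, at 101 CPM in 29 CD8hi cells (58.0 to 165) and 32.5 in 56 CD8lo cells (13.1 to 67.1), a log2 ratio of 1.64 (0.28 to 3.16). In cluster 6, *CTLA4* was 49.6 CPM in 25 CD8hi cells (16.1 to 116) and 140 in 145 CD8lo cells (110 to 177).

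Some FOXP3-negative cells carried several of the genes. Of the 104 with 3 or more of the 8 genes (unthinned), 45 lay in cluster 4, 12 each in clusters 6 and 7, and 9 in cluster 9, at a median depth of 4403.5 UMIs. In FOXP3-negative CD4hi cells with a *TNFRSF4* UMI (230), *TNFRSF18* stood at 57.8 CPM against 4.56 in those without, a ratio of 12.7 (log2 3.67, 3.23 to 4.10), at median depths of 4752 and 3078 UMIs. *TNFRSF4* and *TNFRSF18* are neighbouring genes in the RefSeq annotation of T2T-MFA8v1.1, a different assembly from the one the counts were made on. *IKZF2* did not follow *TNFRSF4* (log2 ratio -0.48, -1.40 to 0.31). Cells with a *CTLA4* UMI (350) had more of all 7 other genes, with log2 ratios from 1.14 for *TNFRSF4* (0.63 to 1.62) to 1.72 for *IL2RA* (1.02 to 2.36).

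Further genes of the pathways were read from lists in the same contrast of CD4hi cells. Of 11 genes of the interleukin-2 receptor and STAT5 pathway 5 passed the filter, of which 1 (*IL2RB*) was called higher and 0 lower, where 0.97% and 0.997% of all 3711 genes were, with a median log2 ratio of 0.38. *BCL2*, a survival gene, had 44.6 CPM against 22.9 (log2 ratio 0.96, 0.59 to 1.32), and *IL2* itself had 0 UMIs in FOXP3-positive and 1 in FOXP3-negative cells. Of 16 partners and regulators of FOXP3, 12 passed and 0 were called, with a median of -0.13. *FOXO1* came closest upwards (28.0 against 14.2 CPM, 0.98, 0.49 to 1.43) and *NFATC2* downwards (38.2 against 76.1 CPM, -0.99, -1.39 to -0.62). *IRF4*, which was in too few cells to pass, had 22.3 against 5.14 CPM (2.12, 1.54 to 2.66).

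Of 22 other surface and effector genes of regulatory T cells, 9 passed, 0 were called higher (0.97% of all genes) and 2 lower (0.997% of all), with a median of 0.05. The 2 were *IL7R*, the interleukin-7 receptor that is low on regulatory T cells, at 317 against 761 CPM (-1.27, -1.40 to -1.14), and *CD40LG*, at 30.6 against 72.5 CPM (-1.25, -1.69 to -0.83). *ICOS*, the neighbour of *CTLA4* and a costimulatory receptor, had 33.1 against 15.4 CPM (1.11, 0.66 to 1.52) without passing, and *IL10* had 0 UMIs against 72. Of 8 relatives of the 9 genes, 4 passed and 0 were called (median -0.39). The Ikaros family members *IKZF1* (121 against 176 CPM, -0.54, -0.76 to -0.34) and *IKZF3* (48.4 against 56.7 CPM, -0.23, -0.58 to 0.10) did not share the enrichment of *IKZF2* and *IKZF4*. Of 7 ligands of the receptors 0 passed, and *CD86* had 14 UMIs in FOXP3-positive cells (8.92 CPM) against 71 (2.53 CPM; 1.82, 0.87 to 2.65).

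Markers of other cells were read in the same groups, and their part in the results was not tested. The 7 B cell markers summed to 64.3 CPM in FOXP3-positive CD4hi cells, with 1 of them at 0, and to 132 in FOXP3-negative cells. In the FOXP3-positive cells of clusters 4 and 6 they summed to 57.3 and 55.1 CPM, with 5 of the 7 at 0 in each. The 5 monocyte markers found summed to 93.0 and 79.9 CPM, and to 38.7 and 8.10 CPM in the FOXP3-positive cells of clusters 4 and 6. The 4 T cell markers summed to 3068 and 3267 CPM, and the 8 markers of cytotoxic CD4 T cells to 274 and 1039 CPM. The naïve list (6 genes) summed to 2320 and 2406 CPM, but to 1504 in cluster 4 and 3119 in cluster 6 among FOXP3-positive cells. Sums for cytotoxic CD8 T cells (7 genes) were 297 and 1012 CPM, for innate cells (8) 134 and 566, for Eomes+ Tr1 cells (3) 25.5 and 140, for Th2 cells (4) 220 and 219, for Th17 cells (6) 38.2 and 79.7 (55.6 and 6.48 in clusters 4 and 6), for follicular helper cells (6) 1164 and 1091, and for cycling cells (5) 13.4 and 24.5. Platelet and erythroid markers summed to under 1 CPM in both groups.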

How the data were processed

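Alignment by the authors was to Macaca_fascicularis_5.0 (Cell Ranger 3.1.0, STAR 2.5.1b), and the deposited values are unnormalized UMI counts of genes and tags in each barcode, before the filter the authors applied in Seurat 3.1.3. From these counts, cells were filtered, divided by tag thresholds of 144 and 419, summed and thinned as stated in the results, in Python 3.11.15 with numpy 2.4.6 and scipy 1.17.1. Clusters came from Seurat 5.3.0 in R 4.3.3 (2000 variable genes, 20 components, 20 neighbours, resolution 0.8), without the 9 genes and the tags. B cells for the background had at least 3 UMIs of *CD79A*, *CD79B* and *MS4A1* and at most 1 of *CD3D*, *CD3E*, *CD3G* and *TRAC*. No doublets were removed from the main values. Calls mean a ratio of at least 2. Genes named are the 9, the lists above, and the 10 highest and 10 lowest ratios among genes that passed the filter. Others were named after their values were seen. The genes and lists were chosen with earlier results of these data known. The steps were tested on simulated data. No genome sequence was used here, so no coordinates are given. Some single genes are not reported here.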

Additional observations from a re-analysis of the deposited data

How the results depend on the processing

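Values from 1 animal carry no replicate error, and shares of cells depend on depth. Of 322 values recomputed, 271 stayed within the interval of the value given, or within 1.5 times a count, and 0 changed direction among those whose interval lacked 0. With at least 2 *FOXP3* UMIs, the FOXP3-positive share was 0.966% of all cells in place of 3.15%, 1.25% of CD4hiCD8lo, 0.540% of CD4hiCD8hi and 0% of CD4loCD8hi cells, and 64 genes were called higher and 71 lower in place of 36 and 37. With no thinning it was 4.35%, 5.02% and 3.66% for all, CD4hiCD8lo and CD4hiCD8hi cells. Thinned to 1500 UMIs it was 2.32% of all, 2.75% of CD4hiCD8lo and 0% of CD4loCD8hi cells. With no filter on the share of cells, 181 genes were called higher and 766 lower. At resolution 1.2, 72.9% of FOXP3-positive cells lay in the 2 clusters with most of them. Of single genes, 36 values moved. Of these, 22 rose (15 with no thinning, 6 with at least 2 *FOXP3* UMIs and 1 with means over cells). The other 14 fell (12 with thinning to 1500 UMIs, 1 with tag thresholds 25% higher and 1 ratio to the set limit with 10 components). Removing the FOXP3-positive cell with most UMIs of a gene, chosen after seeing the data, left the log2 ratios between 1.84 (*TIGIT*) and 3.96 (*IL2RA*). Removing 543 cells by doublet score or 356 by B cell markers moved none. No paired analysis was possible because there is 1 animal and no group has a second sample.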
